A study of Mus musculus with 27 samples.

Results

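Type I interferon response genes were examined in cancer-associated fibroblasts (CAFs) of liver metastases formed by MC38 tumor cells. They were taken by symbol from a fixed list of 40 genes that hold the receptor, the signal carriers and widely used induced genes, and all 40 were found among the 18855 targets of the data sheet. The question put to them was whether CAFs next to CMTM6-knockdown tumor cells differ from CAFs next to control tumor cells in this response, and how the response varies between the regions of one group.

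The metastases grew in the livers of 2-month-old C57BL/6 mice after MC38 cells, a mouse colon carcinoma line, were injected into the portal vein. The cells carried a CMTM6 shRNA in the knockdown group and a non-targeting (NT) shRNA in the control group, so that the fibroblasts themselves were unmodified host cells in both. RNA was read with the GeoMx Digital Spatial Profiler from the desmin-stained area of 13 regions of interest (ROIs) in CMTM6-knockdown metastases and 14 ROIs in control metastases. These came from 3 mice per group and no label says which ROI came from which mouse, so some ROIs share an animal and p-values over ROIs are too small. Desmin marks stellate cells and other contractile cells, and the area it selects can hold other cells as well. In such segments, fewer cells of a type and less RNA per cell cannot be told apart.

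Type I interferons bind a receptor of the chains IFNAR1 and IFNAR2 and act through the kinases TYK2 and JAK1. A complex of transcription factors that holds STAT2 and IRF9 then forms and binds the interferon-stimulated response element (ISRE), a short sequence in the promoters of induced genes. Many of the induced genes encode antiviral proteins that bind or cut foreign RNA, block virus entry or attach the ubiquitin-like protein ISG15, and in tumors the response is read as a trace of interferon made somewhere in the tissue.

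Promoter sequences of the genes were searched for the letters of this element, since they are what the response genes are known to share. RefSeq windows from 250 bases before to 50 after an annotated start (GRCm38.p6) were matched by symbol for 29 of the 40 genes. The ISRE core, spelled as GAAA and GAAA set 2 bases apart, or as TTTC and TTTC set 2 bases apart when read from the opposite strand, was present for 13 of the 29 genes (44.8%), beside 3.99% of all 27025 genes with such windows. The letters TTCNNNGAA, those of the interferon-gamma activated site, were present for 10 of the 29 genes (34.5%), beside 9.55% of all genes. Other genes described below held no ISRE core, among them Oasl1, Oasl2, Irf7, Ifitm1, Samhd1 and Trim25. Of these, Samhd1 did hold the letters of the interferon-gamma activated site. The sequences below are from some of the 13 genes that held the core. In them the capitals mark the ISRE core nearest the start together with any other match in the stretch, and each is read 5′ to 3′ on the strand of the gene.
Isg15, chr4:156200860-156200899, minus strand: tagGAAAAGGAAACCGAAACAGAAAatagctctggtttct
Ifit1, chr19:34640782-34640828, plus strand: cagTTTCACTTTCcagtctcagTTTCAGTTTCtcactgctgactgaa
Ifit3, chr19:34583392-34583431, plus strand: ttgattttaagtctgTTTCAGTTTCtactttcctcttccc
Oas1a, chr5:120907515-120907554, minus strand: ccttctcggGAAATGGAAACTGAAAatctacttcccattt
Bst2, chr8:71537572-71537611, minus strand: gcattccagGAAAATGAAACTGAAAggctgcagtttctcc
Rsad2, chr12:26456548-26456587, minus strand: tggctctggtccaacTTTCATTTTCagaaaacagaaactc
Ifitm2, chr7:140955983-140956022, minus strand: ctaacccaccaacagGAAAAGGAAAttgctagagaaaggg
Over the whole window Isg15 held 3 matches, Ifit1, Ifit3, Oas1a and Bst2 held 2 each, and Rsad2 and Ifitm2 held 1 each. A match is a description of letters and not of binding.

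The deposited sheet gave 76346 to 2776820 reads per knockdown ROI and 659571 to 3269149 per control ROI, as recovered from the steps of the values. The 40 genes together took 400 to 17690 reads in knockdown ROIs and 2712 to 24810 in control ROIs. ROI 26, a knockdown ROI, was the shallowest, and 1 read was worth 14.1 there, so that Isg20, Oas2, Mx2 and Ifih1 rested on 1 read each in it. The median target of an ROI lay at a log2(value + 1) of 4.33 ± 0.18 in knockdown CAFs (SD, n = 13 ROIs) and 4.93 ± 0.11 in control CAFs (SD, n = 14 ROIs). Apart from ROI 26, the 75th percentile of the deposited values was nearly constant within a group but not between them. It was 56.4 in ROI 26, 43.9 to 45.7 in the other knockdown ROIs and 70.3 to 72.6 in control ROIs. Levels are therefore given as log2(value + 1) minus the median of that ROI over all targets, where 0 is the median target and 1 is a doubling. The signal of a probe also depends on the probe, so levels of different genes are not ranked by abundance. Of 10 fibroblast and stellate cell markers, 8 were above background in each group and Lrat and Reln were not.

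Nearly the whole response was detectable in these CAFs. A gene was called above background when its value exceeded the 95th percentile of 8 receptor, keratin-associated and defensin families in most ROIs of a group. This held for 39 of the 40 genes in knockdown and for all 40 in control CAFs, beside 52.9% and 53.7% of all targets. The exception was Mx2, a dynamin-like antiviral GTPase, which exceeded background in 4 of 13 knockdown ROIs and in 11 of 14 control ROIs. ROI 26 had 32 of the 40 genes above background, and every other ROI had 38 to 40.

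**Figure D1:**
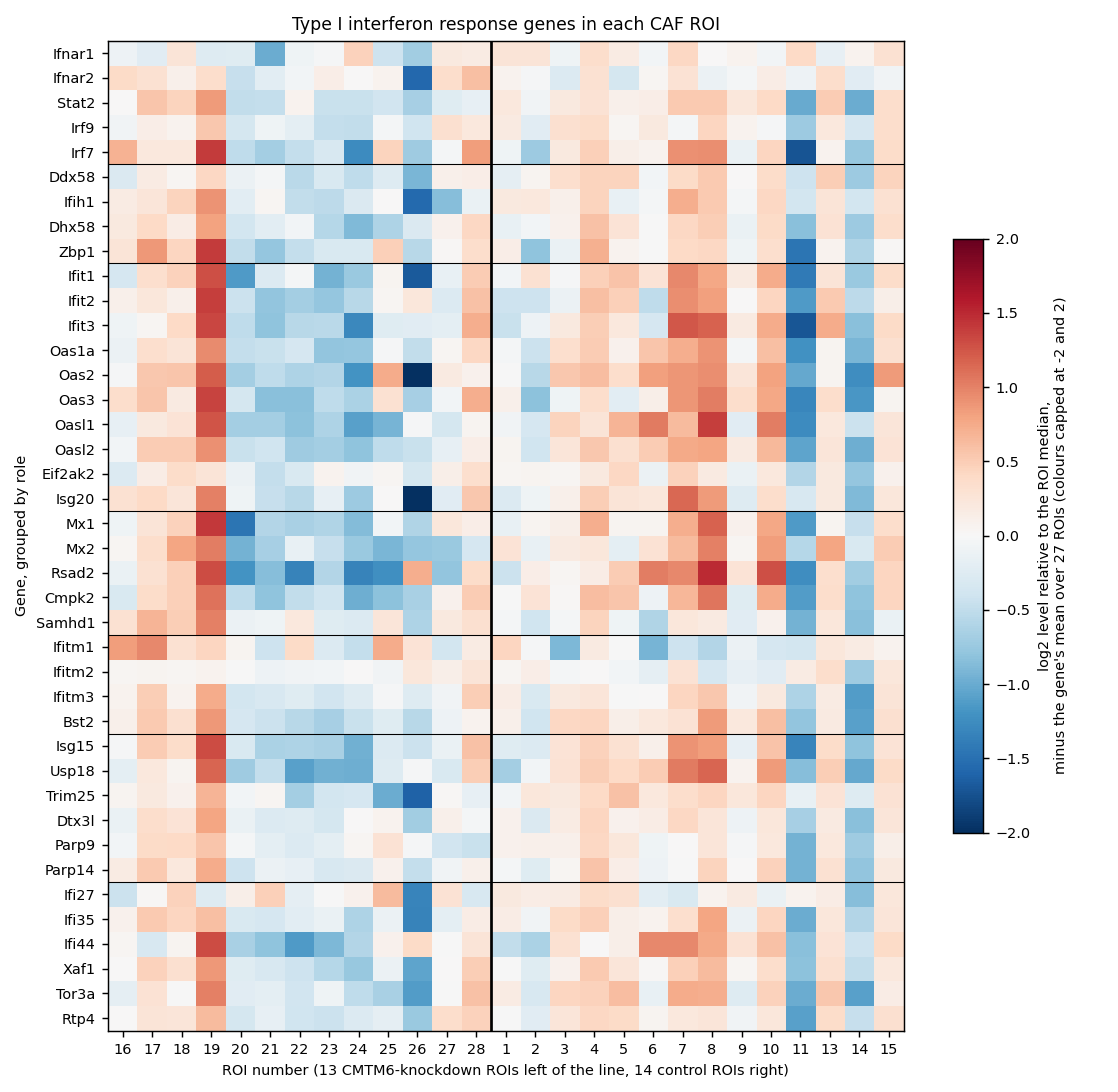
Heat map of the 40 genes (rows, grouped by role) in each ROI (columns), with the 13 CMTM6-knockdown ROIs left of the vertical line and the 14 control ROIs right of it; colour gives the log2 level relative to the ROI median after the gene's mean over 27 ROIs was taken off. Most rows share the same columns of high and low values: ROI 19 held the highest knockdown value of 34 genes, and ROIs 11 and 14 held the lowest control value of 24 and 13 genes.

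None of the 40 genes passed the test between the groups relative to the median gene. The limma test called 0 of them in either direction at an adjusted p under 0.05, beside 0.111% of all targets called higher in knockdown CAFs and 0.0053% called lower. At an unadjusted p under 0.05, 2 genes were higher (Ifitm1 and Samhd1), or 5% of the genes beside 3.16% of all targets. At the same threshold 7 genes were lower (Rsad2, Oasl1, Mx2, Trim25, Usp18, Ddx58 and Ifnar1), or 17.5% of the genes beside 6.73% of all targets. The edgeR test on recovered reads also called 0 of the 40 at the adjusted threshold, beside 0.594% of all targets called higher and 0.0849% lower, and without adjustment it put 2 genes higher and 3 lower, beside 5.61% and 3.96%. DESeq2 likewise called 0, beside 0.605% higher and 0.101% lower over all targets, and without adjustment put 2 genes higher and 1 lower, beside 4.73% and 3.2%. With the study's thresholds, a fold of at least 1.5 together with an unadjusted p under 0.05, limma put 1 gene lower (Rsad2, or 2.5% of the genes) and 0 higher, beside 0.143% and 0.339% of all targets. The knockdown and control values overlapped for each of the 40 genes, as they did for all 18855 targets.

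The median log2 fold change of the 40 genes, knockdown minus control, was -0.21, with a range of -0.64 to 0.39. It lay at -0.05 over all targets and at -0.09 over the 10336 targets above background in at least 1 group. Of the 40 genes, 35 had a fold change below 0 (87.5%), beside 62.7% of all targets and 71.9% of the targets above background in at least 1 group. This count depended on the scaling. It was 30 with the 75th percentile of each ROI as the centre and 27 with the median of targets above background. With these centres the median over all targets was -0.01 and 0.02. With edgeR the count was 26 of the 40 genes, beside 9322 of all 18855 targets, and the median over the 40 genes was -0.07. Without ROI 26 the median of the 40 was -0.14, and without ROI 11, a control ROI, it was -0.29.

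**Figure D2:**
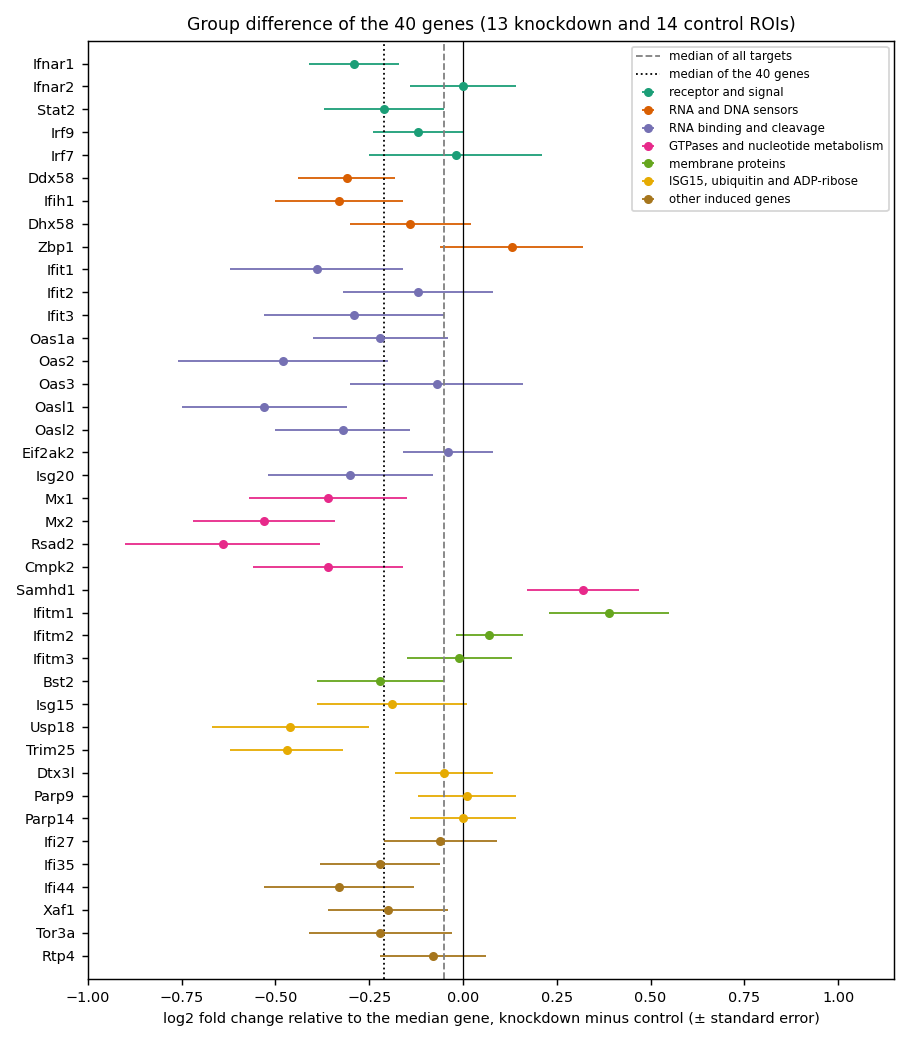
Log2 fold change of each gene relative to the median gene, knockdown minus control (points, coloured by role), with its standard error (bars), over 13 knockdown and 14 control ROIs; the dotted line is the median of the 40 genes (-0.21) and the dashed line that of all targets (-0.05). The values run from -0.64 for Rsad2 to 0.39 for Ifitm1, and no gene passed the adjusted test.

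The receptor and the signal carriers stand first in the pathway, and their median fold change was -0.12. Ifnar1, the receptor chain that binds TYK2, had levels of -0.30 to 1.16 (median 0.59) in knockdown CAFs and 0.53 to 1.11 (median 0.81) in control CAFs. Its lowest knockdown ROIs lay under the whole control range, and the difference was -0.29 (standard error 0.12, adjusted p = 0.426). Ifnar2, the other chain, had levels of 0.00 to 2.17 (median 1.67) in knockdown CAFs and 1.23 to 1.92 (median 1.54) in control CAFs. Its lowest value belonged to ROI 26, where it had 2 reads, and the next lowest to ROI 20 at 1.12, under the control range, while the highest knockdown ROIs lay above it. The difference was -0.00 (standard error 0.14, adjusted p = 0.999).

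Stat2, a transcription factor that is phosphorylated once the receptor is engaged, had levels of 1.77 to 3.29 (median 2.19) in knockdown CAFs and 1.44 to 2.96 (median 2.66) in control CAFs. The knockdown median was lower while the single highest ROI was a knockdown one, and the difference was -0.21 (standard error 0.16, adjusted p = 0.689). Irf9, the DNA-binding part of the complex, had levels of 1.46 to 2.48 (median 1.88) in knockdown CAFs and 1.22 to 2.38 (median 2.07) in control CAFs, a difference of -0.12 (standard error 0.12, adjusted p = 0.761). Irf7, an interferon-induced factor that drives interferon genes in turn, spread widely in both groups, at 2.73 to 5.38 (median 3.95) in knockdown CAFs and 2.26 to 4.91 (median 4.08) in control CAFs. Its means almost coincided, with a difference of -0.02 (standard error 0.23, adjusted p = 0.983) whose sign turned under 16 of 37 alternatives.

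Among the sensors of foreign nucleic acid, Ddx58, which encodes the RNA sensor RIG-I, had levels of 1.55 to 2.88 (median 2.35) in knockdown CAFs and 1.74 to 2.98 (median 2.82) in control CAFs. Only 1 of 13 knockdown ROIs exceeded the control median, but the difference of -0.31 did not pass (standard error 0.13, adjusted p = 0.43). Ifih1, which encodes the long-RNA sensor MDA5, and Dhx58, which encodes their regulator LGP2, differed by -0.33 and -0.14. Zbp1, a sensor of Z-form nucleic acid, had levels of 2.07 to 4.24 (median 2.86) in knockdown CAFs and 1.39 to 3.56 (median 2.89) in control CAFs. Its difference of 0.13 (standard error 0.19, adjusted p = 0.845) was 0.02 without ROI 19.

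The 10 genes whose products bind or cut RNA all had fold changes below 0, with a median of -0.29, beside 62.7% of all targets. With edgeR 8 of the 10 did so, with a median of -0.16, beside 9322 of all 18855 targets. Oasl1, an OAS-like protein, had levels of 1.22 to 3.56 (median 1.94) in knockdown CAFs and 1.04 to 3.69 (median 2.55) in control CAFs. Both ranges were wide and overlapped over most of their length, yet 2 of 13 knockdown ROIs exceeded the control median. The difference was -0.53 (standard error 0.22, adjusted p = 0.415). Oas2, which makes the second messenger that activates RNase L, had levels of -0.95 to 3.21 (median 1.97) in knockdown CAFs and 0.75 to 2.93 (median 2.44) in control CAFs. The lowest of these was the single read of ROI 26. Its difference of -0.48 (standard error 0.28, adjusted p = 0.594) was -0.26 without that ROI.

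Oasl2 and Oas1a, of the same family, were among the stronger signals. Oasl2 had levels of 2.85 to 4.56 (median 3.25) in knockdown CAFs and 2.60 to 4.43 (median 3.90) in control CAFs, a difference of -0.32 (standard error 0.18, adjusted p = 0.588). Oas1a had levels of 2.37 to 4.10 (median 3.04) in knockdown CAFs and 1.95 to 4.05 (median 3.36) in control CAFs, a difference of -0.22 (standard error 0.18, adjusted p = 0.714). For both, ROI 19 was the highest of all ROIs and ROI 11 the lowest. Of the IFIT proteins, which hold foreign RNA, Ifit1, Ifit2 and Ifit3 differed by -0.39, -0.12 and -0.29. The exonuclease gene Isg20, Oas3 and the kinase gene Eif2ak2, which encodes PKR, differed by -0.30, -0.07 and -0.04. Ifit3 and Oas1a have near-identical relatives in the mouse genome, and whether their probes tell these apart is not given.

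The lowest fold change belonged to Rsad2, which encodes viperin, a radical enzyme that makes a chain-ending nucleotide. It had levels of 0.60 to 3.25 (median 1.35) in knockdown CAFs and 0.70 to 3.43 (median 2.24) in control CAFs. Both groups held ROIs near the bottom and near the top of the scale, so the groups overlapped almost fully, and 4 of 13 knockdown ROIs exceeded the control median. The difference of -0.64 had a standard error of 0.26 and an adjusted p of 0.417, which no alternative brought under 0.149.

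Mx2 had levels of -1.12 to 0.84 (median -0.64) in knockdown CAFs and -0.75 to 0.83 (median 0.07) in control CAFs. These values straddled the background, as given above, and the difference was -0.53 (standard error 0.19, adjusted p = 0.356), or -0.28 with edgeR. Its relative Mx1 and Cmpk2, a nucleotide kinase gene next to Rsad2 in the genome, both differed by -0.36. Samhd1, whose enzyme breaks down the building blocks of DNA, went the other way. It had levels of 2.86 to 4.50 (median 3.70) in knockdown CAFs and 2.54 to 3.93 (median 3.42) in control CAFs. In 8 of 13 knockdown ROIs it exceeded the control median, and the difference was 0.32 (standard error 0.15, adjusted p = 0.478).

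**Figure D3:**
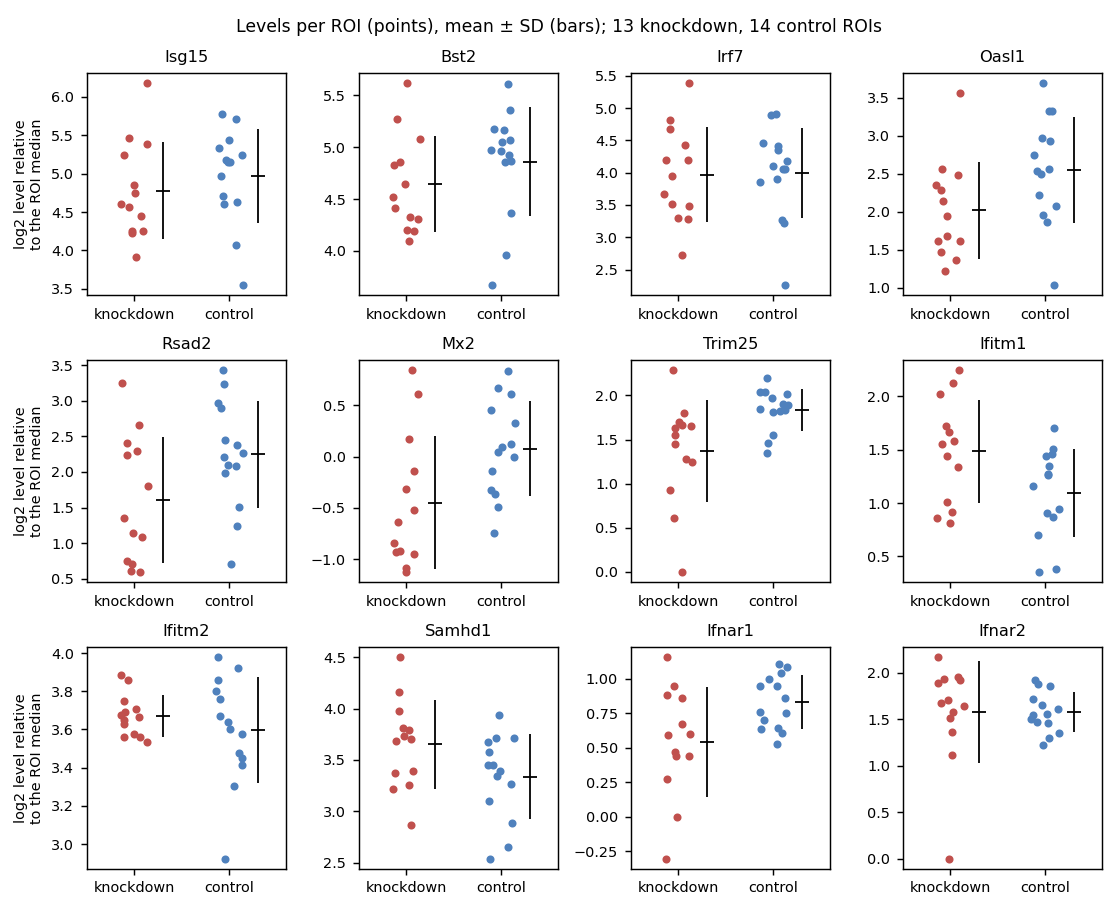
Log2 level relative to the ROI median of 12 of the genes, with one point for each of 13 knockdown ROIs (left) and 14 control ROIs (right) and the mean ± SD beside them; each panel has its own axis. The groups overlap in every panel: for Rsad2 knockdown ROIs run from 0.60 to 3.25 and control ROIs from 0.70 to 3.43, and for Ifitm1 from 0.81 to 2.25 and from 0.36 to 1.71.

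The membrane proteins that keep viruses from entering or leaving the cell had a median fold change of 0.03 over 4 genes. Ifitm1, a restriction factor of the cell surface, had the highest fold change of all 40 genes. It had levels of 0.81 to 2.25 (median 1.55) in knockdown CAFs and 0.36 to 1.71 (median 1.21) in control CAFs. In 9 of 13 knockdown ROIs it exceeded the control median, and the difference of 0.39 had a standard error of 0.16 and an adjusted p of 0.4, or 0.0998 with edgeR. Ifitm2, its neighbor on the chromosome, had the smallest SD of the 40 genes in knockdown CAFs, with levels of 3.53 to 3.89 (median 3.67) in knockdown CAFs and 2.92 to 3.98 (median 3.62) in control CAFs. Its difference was 0.07 (standard error 0.09, adjusted p = 0.816).

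Ifitm3, of the same cluster and close to Ifitm2 in sequence, had levels of 4.22 to 5.36 (median 4.54) in knockdown CAFs and 3.50 to 5.14 (median 4.76) in control CAFs, a difference of -0.01 (standard error 0.14, adjusted p = 0.99). Bst2, the tether that holds budding viruses on the cell, had levels of 4.10 to 5.62 (median 4.52) in knockdown CAFs and 3.67 to 5.61 (median 4.97) in control CAFs. The tops of the ranges met, and the difference was -0.22 (standard error 0.17, adjusted p = 0.682).

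Isg15, the ubiquitin-like modifier, gave the strongest signal of the list in both groups. It had levels of 3.92 to 6.18 (median 4.60) in knockdown CAFs and 3.55 to 5.77 (median 5.15) in control CAFs. Within the knockdown group the highest ROI (19) was 4.79-fold above the lowest (24), and within the control group the highest (7) was 4.66-fold above the lowest (11). The difference between the groups was -0.19 (standard error 0.20, adjusted p = 0.785).

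Usp18, the protease that takes ISG15 off its targets and damps the receptor, differed by -0.46 (standard error 0.21, adjusted p = 0.484). Trim25, a ubiquitin ligase that activates RIG-I, had levels of 0.00 to 2.29 (median 1.55) in knockdown CAFs and 1.35 to 2.19 (median 1.87) in control CAFs. Only 1 of 13 knockdown ROIs exceeded the control median, while the lowest knockdown value came from 2 reads in ROI 26. The difference of -0.47 had a standard error of 0.15 and an adjusted p of 0.276, and it was -0.35 without ROI 26. Parp9, which works with the ligase Dtx3l, had levels of 2.12 to 3.12 (median 2.53) in knockdown CAFs and 1.62 to 2.98 (median 2.67) in control CAFs, a difference of 0.01 (standard error 0.13, adjusted p = 0.989). Dtx3l and Parp14, another ADP-ribosyl transferase gene of that locus, differed by -0.05 and -0.00. The remaining 6 genes (Ifi27, Ifi35, Ifi44, Xaf1, Tor3a and Rtp4) had a median of -0.21 and ran from -0.33 for Ifi44 to -0.06 for Ifi27.

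Without centring, the deposited values of the same genes were lower in knockdown CAFs almost throughout. The limma test called 39 of the 40 genes lower and 0 higher, beside 94% of all targets called lower and 0.0689% called higher. With the study's thresholds it put 36 of the 40 (90%) lower and 0 higher, beside 66.7% and 0.0371% of all targets. The median log2 fold change was -0.82 over the 40 genes and -0.66 over all targets. Isg15 had deposited values of 280 to 1429 (median 509) in knockdown CAFs and 340 to 1789 (median 1045) in control CAFs. Its log2 fold change was -0.79, with a standard error of 0.20 and an adjusted p of 5.33e-04 by limma. Ifitm1 was the gene that did not pass, with values of 31.7 to 91.6 (median 55.4) in knockdown CAFs and 37.7 to 103 (median 66.7) in control CAFs (log2 fold change -0.21, adjusted p = 0.213). Since the 75th percentiles differ between the groups in the same direction, a fall that all targets share and a difference of scaling cannot be told apart in these values.

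Most of the genes varied more between the ROIs of a group than the median target above background did. Over the genes, the median distance from the lowest to the highest ROI was 1.95 on the log2 scale in knockdown CAFs and 1.71 in control CAFs. Of the 39 genes above background in both groups, 35 in knockdown and 36 in control CAFs had a larger SD than the median target above background. The median SD was 0.54 beside 0.35 in knockdown CAFs and 0.50 beside 0.26 in control CAFs. The genes varied together from ROI to ROI: the mean level of the 39 genes ran from 1.66 (ROI 26) to 3.20 (ROI 19) in knockdown CAFs, with a median of 2.23, and from 1.49 (ROI 11) to 2.94 (ROI 8) in control CAFs, with a median of 2.51. As a mean with its SD it was 2.24 ± 0.44 (n = 13 ROIs) in knockdown and 2.42 ± 0.42 (n = 14 ROIs) in control CAFs.

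Across the ROIs of a group, pairs of the 39 genes had a median Pearson r of 0.70 in the 13 knockdown ROIs and 0.81 in the 14 control ROIs, over 741 pairs. All pairs of the 9756 targets above background had a median of 0.24 in knockdown and 0.20 in control CAFs. An r over 0.5 was reached by 73% of the pairs in knockdown and 76.5% in control CAFs, beside 27.4% and 20% of all target pairs. ROIs of one group share animals and the scaling by depth, and the labels give all 27 ROIs the same slide name. The correlations are descriptions without a test. Without the 2 ROIs whose mean level was farthest from the median (19 and 26 in knockdown, 11 and 14 in control), the median r of the genes was 0.67 in knockdown and 0.58 in control CAFs, beside 0.13 and 0.09 over all target pairs.

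**Figure D4:**
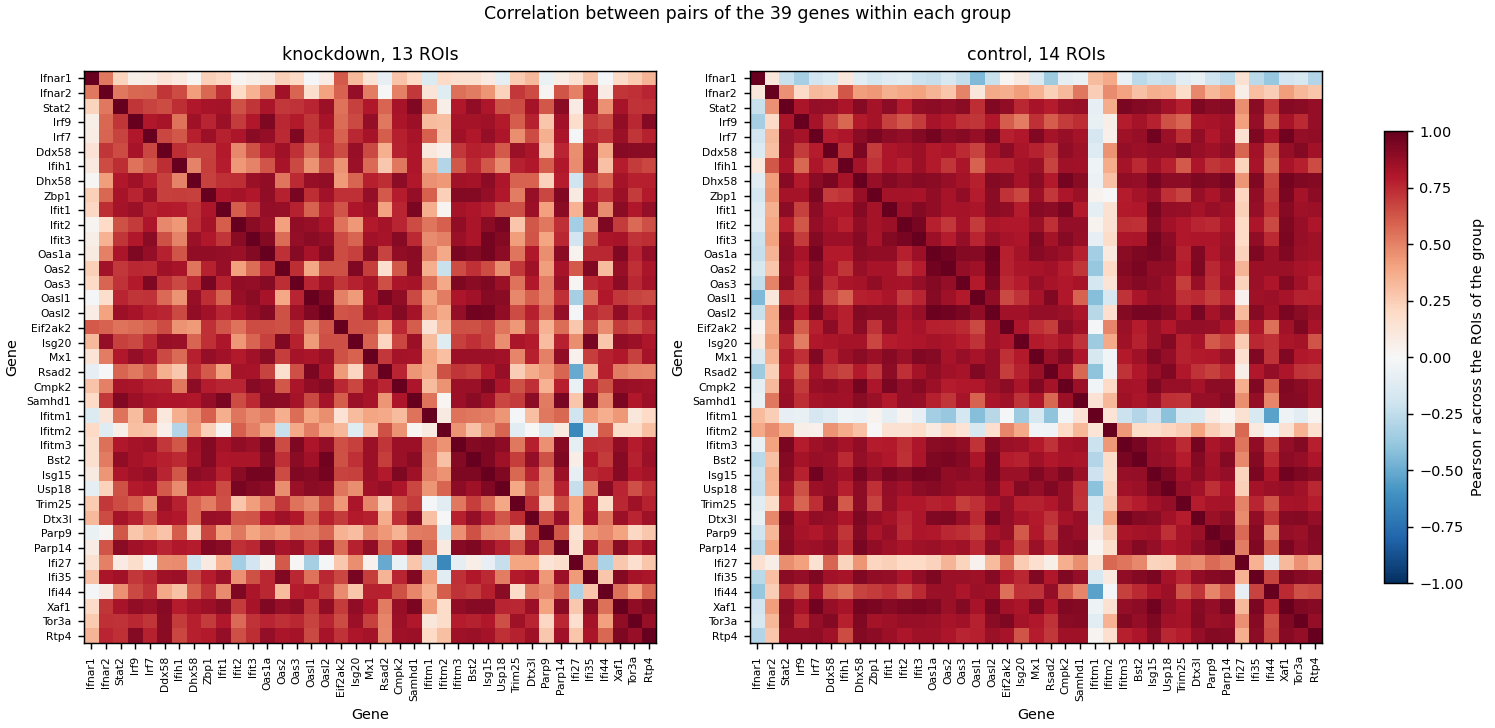
Pearson r between each pair of the 39 genes across the 13 knockdown ROIs (left) and the 14 control ROIs (right), with the genes in the order of their roles. Most pairs are strongly positive (median 0.70 and 0.81), and the palest rows and columns belong to Ifnar1, Ifitm1, Ifitm2 and Ifi27, with Ifnar2 paler in control and Parp9 and Rsad2 paler in knockdown CAFs.

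The closest pair was Ifit3 and Isg15, with an r of 0.96 in knockdown and 0.96 in control CAFs. Next came Isg15 with Oas1a (0.96 and 0.95), Oasl2 with Bst2 (0.96 and 0.95), Isg15 with Oasl2 (0.96 and 0.95) and Isg15 with Cmpk2 (0.94 and 0.93), where the knockdown value stands first in each pair. Isg15 thus took part in 4 of the 5 closest pairs. Compared with the mean of the other genes, Xaf1, an apoptosis-linked induced gene, had an r of 0.97 in knockdown and 0.98 in control CAFs, and Isg15 had 0.95 and 0.98. An r over 0.8 with the mean of the others was found for 26 genes in knockdown and 33 in control CAFs.

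For 5 genes the r with the mean of the others was under 0.5 in at least 1 group, a limit chosen after the values were seen. The receptor chain Ifnar1 had an r of 0.18 with the mean of the others in knockdown and -0.19 in control CAFs, and Ifnar2 had 0.63 and 0.40. Ifitm2 had 0.25 in knockdown and 0.22 in control CAFs, Ifi27 had 0.11 and 0.34, and Ifitm1 had 0.46 and -0.18. Ifitm3, from the same cluster as Ifitm1 and Ifitm2, had 0.93 in knockdown and 0.92 in control CAFs. Parp9 lay just above the limit, with 0.51 in knockdown and 0.88 in control CAFs, and Rsad2 had 0.63 and 0.85. In the promoter windows, Ifitm2 held an ISRE core, as printed above, Ifnar1, Ifnar2 and Ifitm1 held none, and Xaf1, which followed the mean closely, held none either.

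Among the 9717 other targets above background, those most like the mean of the 39 genes over the 27 ROIs, after each group's mean was taken off, were Rnf213 (r = 0.97), Slfn8 (0.96), Herc6 (0.96), Gbp3 (0.95) and Helz2 (0.93). Herc6 encodes the mouse ligase for ISG15, Slfn8 a Schlafen protein and Gbp3 a guanylate-binding protein. All but Rnf213 were on the wider list of pathway genes taken for comparison.

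That wider list had 88 genes in the sheet, of which 69 were above background in both groups. The ligands themselves were not detected: none of 9 interferon genes (6 Ifna genes, Ifnb1, Ifnl2 and Ifng) was above background in either group. Relative to the median gene, limma called 0 of the 88 in either direction. Without adjustment, at p under 0.05, 13 were higher (14.8%) and 3 lower (3.41%), beside the 3.16% and 6.73% of all targets given above, and their median fold change was 0.05. The highest was Cxcl9, an interferon-gamma induced chemokine, with levels of 2.66 to 4.95 (median 3.39) in knockdown CAFs and 0.03 to 3.62 (median 2.71) in control CAFs. Its lowest knockdown ROI stood near the control median, and the difference was 1.18 (standard error 0.27, adjusted p = 0.0618), or 1.20 with an adjusted p of 0.00855 in edgeR. Without ROI 26 its adjusted p by limma was 0.0305.

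Gbp2, a guanylate-binding protein gene, had levels of 2.66 to 5.16 (median 3.82) in knockdown CAFs and 1.63 to 4.49 (median 3.43) in control CAFs, a difference of 0.66 (standard error 0.23, adjusted p = 0.348), or 0.85 with array weights in limma (adjusted p = 0.0495). Iigp1, an immunity-related GTPase gene, had levels of 2.86 to 4.29 (median 3.36) in knockdown CAFs and 1.38 to 3.66 (median 2.94) in control CAFs, a difference of 0.63 (standard error 0.17, adjusted p = 0.166). With edgeR, 4 of the 88 genes passed and were higher (Cxcl9, Irf8, Iigp1 and Gbp6), or 4.55% beside the 0.594% of all targets, and 0 were lower. Irf8 differed by 0.47 (standard error 0.13, adjusted p = 0.19 by limma), or 0.60 with an adjusted p of 0.00421 in edgeR. The lowest 3 of the wider list were Trim30d (-0.40), Oas1g (-0.39) and Oas1b (-0.37), none of which passed.

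The mean level of the 39 genes was set beside depth and beside marker lists of other cells, within each group. With the log2 reads of the ROI its Pearson r was 0.52 in the 13 knockdown ROIs and 0.10 in the 14 control ROIs (Spearman's rho 0.65 and -0.04). With 10 effector genes of type II interferon it was 0.81 in knockdown and 0.80 in control CAFs, and 0.64 and 0.60 without the 2 ROIs farthest from the median. For the other lists, the r without these 2 ROIs of each group follows in brackets. Macrophage markers gave 0.23 (0.42) in knockdown and 0.42 (0.38) in control CAFs. T and NK cell markers gave 0.51 (0.35) and 0.24 (0.61), and markers of plasmacytoid dendritic cells 0.64 (0.50) and 0.06 (0.18). Hepatocyte markers gave 0.44 (0.17) and 0.36 (0.29), and fibroblast markers -0.25 (-0.23) and -0.20 (-0.19). MHC class II genes gave 0.24 (-0.04) and 0.61 (0.38). Siglech and Ccr9, defining markers of plasmacytoid dendritic cells, were not above background in either group, nor were Ido1 and Socs1 of the type II genes. Of 12 T and NK cell markers, 8 were above background in knockdown and 4 in control CAFs, and of 10 hepatocyte markers 8 and 3.

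**Figure D5:**
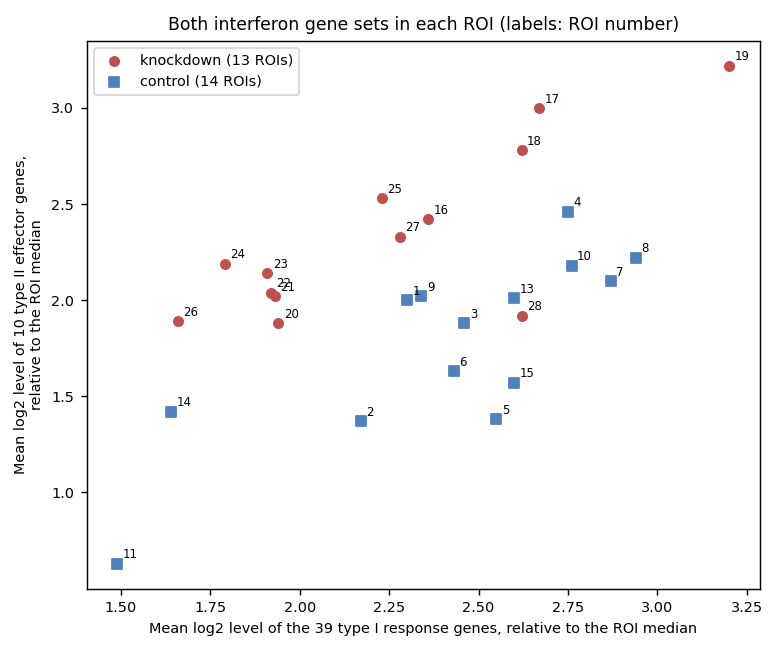
Mean log2 level of the 39 type I response genes (x axis) against that of 10 type II effector genes (y axis), both relative to the ROI median, with one point per ROI (13 knockdown, 14 control) labelled by its number. The means run together within each group (r = 0.81 in knockdown and 0.80 in control CAFs), and ROI 11 is the lowest and ROI 19 the highest on both axes.

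Some of these lists differed between the groups relative to the median gene. Limma called 3 of 10 hepatocyte markers (Apoa1, Fga and Cyp2e1), 5 of 5 MHC class II genes (H2-Aa, H2-Ab1, H2-Eb1, Cd74 and Ciita), 1 of 12 T and NK cell markers (Nkg7) and 1 of the 10 type II effector genes (again Ciita) higher in knockdown CAFs. Over all targets it called 0.111% higher. It called 0 of 12 macrophage and 0 of 10 fibroblast markers in either direction. Cyp2e1 was not above background in either group, and Apoa1 and Fga were not above it in control CAFs. Summed deposited levels are not centred, so a shared fall and a difference of scaling cannot be told apart in them. The hepatocyte list summed to 116 to 946 in knockdown and 174 to 661 in control CAFs. The MHC class II list summed to 1162 to 3011 and 436 to 3037, and the macrophage list to 1077 to 2819 and 1183 to 3467. Relative to the median gene, the median log2 fold changes of these lists were 1.02, 1.22 and 0.23. The part of other cells and of depth in the values of the 40 genes was not tested.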

How the data were processed

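The authors counted GeoMx probe tags by sequencing and analysed them in the GeoMx DSP Analysis Suite; the deposited sheet holds scaled signal values of 18855 targets in 27 ROIs (13 knockdown, 14 control). The kind of scaling is not given in the sources used here. Dividing each ROI's values by its smallest step gave whole reads, within 0.001, for about 99.98% of targets; 3 targets were not whole, none of them among the 40 genes. No columns were identical.

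The main test was limma 3.58.1 (trend, two-sided, R 4.3.3) on log2(value + 1) minus each ROI's median, fitted on all targets with Benjamini-Hochberg adjustment. A fold change on this scale understates that of low targets. Alternatives were pseudocounts of 0.1 and 5, a background filter, other centres, a t test, array weights, edgeR 4.0.16 and DESeq2 1.42.0 on the reads, where edgeR called 112 targets higher and 16 lower, and each ROI left out. Background was set on 1067 targets of 8 families (Olfr, Vmn1r, Vmn2r, Tas1r, Tas2r, Taar, Krtap, Defb). The scripts were tested on simulated data.

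Genes described were those called, the 8 with the strongest signal, the 5 highest and 5 lowest by fold change, the receptor chains, Stat2, Irf9 and Irf7, and of the wider list those called and the 3 highest and 3 lowest; others are marked by a count or given as a fold change. The genes and lists were chosen with earlier results of these data known. Some listed symbols of the wider and marker lists had no target in the sheet and were not analysed here. Promoter windows came from RefSeq (GRCm38.p6).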

Additional observations from a re-analysis of the deposited data

How the results depend on the processing

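No paired analysis was possible because no label pairs a knockdown ROI with a control ROI or ties ROIs to mice. None of the 40 genes was called relative to the median gene under any pseudocount, filter, centre, test or tool tried, or without any single ROI. With the study's thresholds 1 gene, Rsad2, passed as lower, beside 0.143% of all targets. The median log2 fold change of the 40 genes stayed below 0 throughout: leaving out one ROI each gave -0.29 (without ROI 11) to -0.14 (without ROI 26), pseudocounts of 0.1 and 5 gave -0.19 and -0.27, the other centres -0.17 and -0.14, array weights -0.10, DESeq2 -0.10 and edgeR -0.07. Among the genes described by their levels, 5 with fold changes near 0 turned sign, none of them called under any alternative. Ifitm3 turned under 20 of 37 alternatives, with 0.01 at a pseudocount of 0.1, 0.03 and 0.06 with the other centres, 0.00 with array weights and 0.06 with edgeR and DESeq2, and it ran from -0.09 to 0.03 without one ROI each. Ifnar2 turned under 17, with 0.01 at a pseudocount of 0.1, 0.04 and 0.07 with the other centres, 0.11 without ROIs 14 and 26, 0.12 with array weights and 0.19 with edgeR and DESeq2, and it ran from -0.05 to 0.13 without one ROI each. Irf7 turned under 16, with 0.02 and 0.04 with the other centres, 0.04 with array weights, 0.11 with edgeR and 0.09 with DESeq2, and it ran from -0.16 to 0.08 without one ROI each. Parp9 turned under 8, with -0.06 at a pseudocount of 5 and -0.04 without ROIs 14 and 26, and it ran from -0.06 to 0.05 without one ROI each (-0.06 to -0.02 for those that turned it). Ifitm2 turned under 1, with -0.00 at a pseudocount of 5. Of the genes given by fold change alone, edgeR put Parp14 (0.07), Ifi27 (0.07), Oas3 (0.05), Dtx3l (0.05), Eif2ak2 (0.03) and Rtp4 (0.02) above 0. In the deposited values 37 to 39 genes were called lower without one ROI each, and 36 with the study's thresholds, beside 66.7% of all targets. Samhd1 lost its call there without any of 11 ROIs (adjusted p 0.0517 to 0.0773) and Zbp1 without ROI 21 (0.0542). Of the wider list of 88 genes, relative to the median gene, Cxcl9 gained a call by limma without ROI 4, 8, 10, 13, 20 or 26 (adjusted p 0.0305 to 0.0454) and under 5 other alternatives (0.00855 to 0.042), Iigp1 under 3 (0.0359 to 0.0456) and Gbp2 under 1, array weights. Irf8 gained a call by limma without ROI 26, without ROIs 14 and 26, and with the median of targets above background as the centre. Array weights called 5 of the 88 higher (Irf8, Gbp2, Gbp6, Iigp1 and Cxcl9) and DESeq2 4. At the 99th percentile of the background families 39 genes were above background in knockdown and 39 in control CAFs. The median r between genes was 0.68 in knockdown and 0.71 in control CAFs by Spearman's rho, and 0.77 and 0.78 without ROIs 14 and 26. Depth limits the values of ROI 26, whose 40 genes took 400 reads together. The causes of these movements were not tested.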

Other observations

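The distance between the type II effector genes and the type I response genes was set side by side for the 2 groups, a comparison chosen after the values were seen and given without a test. Of the 10 type II genes, Ido1 and Socs1 were not above background in either group, while the 39 type I genes were above it in both. The mean level of the 10 type II genes minus that of the 39 type I genes was taken in each ROI. This difference ran from -0.70 to 0.40 (median 0.12) in knockdown CAFs and from -1.17 to -0.22 (median -0.65) in control CAFs. The probes averaged set the zero of this difference, so only its shift between the groups can be read, and ROIs of a group share animals. The groups overlapped, since ROI 28, the lowest knockdown ROI, lay inside the control range. The next lowest knockdown ROI stood at -0.06. Among the interferon-induced chemokine genes, Cxcl10, more like the type I genes across ROIs (r = 0.92) than Cxcl9 (r = 0.69), had levels of 4.32 to 6.87 (median 4.83) in knockdown CAFs and 2.62 to 6.73 (median 5.30) in control CAFs, with a group difference of 0.01 (standard error 0.30, limma adjusted p = 0.994), beside 1.18 for Cxcl9.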
